A study of Gallus gallus with 8 samples.

Results

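The interiors of chicken microchromosomes were examined for CUT&Tag peaks in liver at normal and high temperature. They were taken as chromosomes 11 to 28 without chromosome 16, 17 chromosomes in all, with 500 kb removed at each end. A peak belonged to them if its midpoint lay more than 500 kb from the chromosome start and more than 500 kb below the highest peak end listed on that chromosome in any library. This selected 11118 of 69159 peaks, or 16.1%, over 165 Mb of sequence. CUT&Tag inserts sequencing adapters with a transposase tethered to an antibody on chromatin, so that peaks mark where the antibody's target was reached. The study concerns genes regulated by Nrf2 in the livers of heat-stressed chickens (Gallus gallus), and the labels leave the target of the primary antibody open. The labels give the treatment type of 4 libraries as normal temperature and of 4 as high temperature. The breed, sex, age, length of exposure and degrees are not stated in the labels. Nor do the labels say that libraries stem from separate birds, and the spread behind the p-values may therefore be technical.

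Bird genomes combine a few large chromosomes with many small ones. Microchromosomes are richer in genes and in GC than the large chromosomes, recombine more per base and carry fewer repeats. Nrf2 is held in the cytoplasm by KEAP1 and degraded in unstressed cells. Under oxidative stress it enters the nucleus, pairs with small MAF proteins and binds antioxidant response elements near genes for glutathione synthesis, quinone reduction and other detoxification. The genes and sequences under the peaks were not analysed here, and positions refer to galGal6, which the submitters' processing notes name as the build.

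Some properties of the lists bear on all that follows. The complete lists held 7550 to 10599 peaks, and their lowest scores ran from 30.0 to 120.01, so the lists end at different scores and their lengths are not on a common scale. The read depth behind them is unknown. High temperature 1 and 3 had 171 interior microchromosome peaks with the same start and the same end, 14.3% of the members in high temperature 1 and 12.2% of those in high temperature 3. The other 27 pairs of libraries had 0 such peaks. High temperature 1 also had far wider peaks than the rest, described further on. Its list was the one with the lowest minimum score, 30.0, against 60.1 to 120.01 in the other lists. Whether this bears on its widths, covered length or recurrence was not tested.

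Peak density in the microchromosome interiors was 9.07 ± 1.24 peaks per Mb at normal and 7.73 ± 0.51 at high temperature (mean and SD, n = 4 each). Normal temperature 1 to 4 had 8.49, 7.70, 9.51 and 10.6 peaks per Mb, from 1405, 1274, 1573 and 1748 peaks. High temperature 1 to 4 had 7.24, 7.59, 8.44 and 7.66 peaks per Mb, from 1197, 1256, 1397 and 1268 peaks. The groups overlapped, since high temperature 3 exceeded normal temperature 2. Exact 95% Poisson intervals, which cover counting error only, reached at most 0.51 peaks per Mb from a value, so some libraries of the same group differed by more than counting error. The two-sided exact permutation p for temperature was 0.0571, and 0.229 after Benjamini-Hochberg adjustment over 6 measures. With equal numbers of peaks taken from each list the difference of -1.33 peaks per Mb became 0.15, with the opposite sign (exact permutation p = 0.743). It was -0.83 without normal temperature 4.

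As a share of the whole list, which removes list length, the members accounted for 15.8% ± 1.23 at normal and 16.4% ± 0.44 at high temperature (mean and SD, n = 4 each). The normal temperature libraries held 17.01%, 14.2%, 15.6% and 16.5%, and the high temperature libraries 15.9%, 16.4%, 16.9% and 16.3%. All 4 high temperature shares lay inside the range of the normal ones (two-sided exact permutation p = 0.514, adjusted p = 0.617). The difference of 0.55 percentage points was 0.0084 when normal temperature 2 was left out and 0.94 when normal temperature 1 was.

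**Figure D1:**
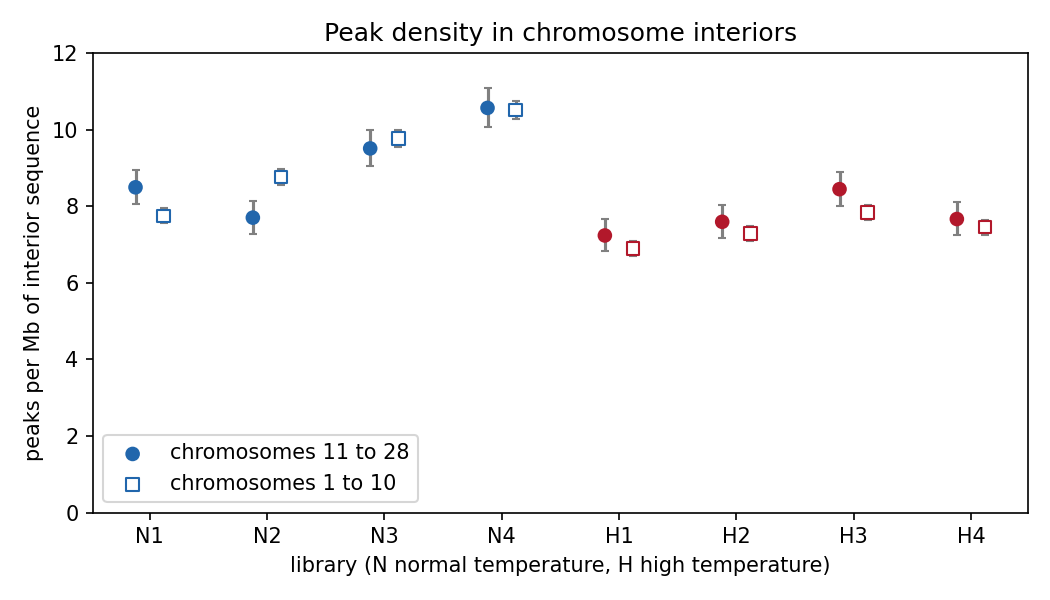
Peaks per Mb of interior sequence in each library, for chromosomes 11 to 28 (filled circles) and chromosomes 1 to 10 (open squares), with exact 95% Poisson intervals for counting error. Normal temperature libraries (N, blue) span 7.70 to 10.6 on microchromosomes and high temperature libraries (H, red) 7.24 to 8.44, and in 6 of 8 libraries the microchromosome value is the higher of the pair.

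Microchromosome interiors were compared with the interiors of chromosomes 1 to 10, trimmed in the same way, which held 49546 peaks over 748 Mb. The density ratio of microchromosomes to large chromosomes was 1.10, 0.879, 0.973 and 1.005 in normal temperature 1 to 4. It was 1.05, 1.04, 1.08 and 1.03 in high temperature 1 to 4. Microchromosomes were thus denser in all 4 high temperature libraries and in 2 of 4 normal ones. Over the 8 libraries the log2 density difference averaged 0.024 ± 0.101 (SD, n = 8), and the exact sign-flip permutation test, two-sided, gave p = 0.516 and an adjusted p of 1. Leaving out normal temperature 1 made this average 0.0086, and leaving out normal temperature 2 made it 0.054, the latter with an exact permutation p of 0.0469 and an adjusted p of 0.188. The ratio itself averaged 0.988 ± 0.090 at normal and 1.05 ± 0.021 at high temperature (mean and SD, n = 4 each), and the groups overlapped because normal temperature 1 had the highest ratio of all (two-sided exact permutation p = 0.229, adjusted p = 0.343). Leaving out normal temperature 1 moved the difference in the ratio from 0.061 to 0.097 (exact permutation p = 0.0286, adjusted p = 0.171), and leaving out normal temperature 2 moved it to 0.025 (exact permutation, adjusted p = 0.814).

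Single microchromosomes differed more from each other than large chromosomes did. For this comparison density was divided by list length, as peaks per Mb per 1000 peaks in the list. At normal temperature the 17 microchromosome means ran from 0.705 on chromosome 27 to 1.07 on chromosome 28, with a coefficient of variation of 9.55%. At high temperature they ran from 0.765 on chromosome 22 to 1.15 on chromosome 25, with a coefficient of variation of 8.54%. Among the 10 large chromosomes the coefficient of variation was 1.58% and 4.64%. Interiors of microchromosomes were 2.95 to 19.4 Mb long, and the shortest carried few peaks per library, so their counting error was wide. High temperature 2, for example, had 21 peaks on chromosome 22, or 4.73 per Mb with an exact 95% Poisson interval of 2.93 to 7.23. The share of this variation that counting error makes up was not tested.

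Before scaling to list length, 14 of 17 microchromosomes had a lower mean density at high than at normal temperature. The exceptions were chromosomes 21, 25 and 27. After scaling, 11 were higher at high temperature and 6 lower, and on 15 of the 17 the libraries of the groups overlapped. Chromosomes 26 and 27 were the exceptions. These are 11.8% of the microchromosomes, close to the background over all 31 chromosomes tested, of which 9.68% had high temperature wholly above normal and 3.23% the reverse.

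Chromosome 27 had the lowest scaled density of the microchromosomes at normal temperature. Its values were 0.787, 0.615, 0.672 and 0.747 peaks per Mb per 1000 peaks in normal temperature 1 to 4, against 1.05, 1.05, 0.839 and 0.980 in high temperature 1 to 4. Every high temperature library was above every normal one, and the means differed by 0.275 (0.980 ± 0.0998 against 0.705 ± 0.077, SD, n = 4 each). In unscaled density the means were 7.63 and 6.68 peaks per Mb, and the groups overlapped, with 6.92 in high temperature 3 and 7.91 in normal temperature 4. Chromosome 26 had 0.935, 0.886, 0.962 and 0.999 scaled at normal temperature and 1.23, 1.10, 1.07 and 1.13 at high temperature, a difference of 0.186. Unscaled, its means had the opposite order, 8.99 at normal and 8.82 peaks per Mb at high temperature. For both chromosomes the exact permutation p, two-sided, was 0.0286, the lowest value that 4 against 4 libraries permit, and the adjusted p over 31 chromosomes was 0.221. At an adjusted p under 0.05 the test called 0 of 17 microchromosomes and 0% of all chromosomes, and 2 of 17 had an unadjusted p under 0.05. The test could not have called a single chromosome, since a p of 0.0286 passes adjustment over 31 chromosomes only if many reach it. The groups overlapped on both chromosomes with the upper 50% of peaks by score and with equal numbers of peaks, where the exact permutation p was 0.143 and 0.0571 for chromosome 27 and 0.8 and 0.114 for chromosome 26. The difference on chromosome 26 was 0.057 with the upper 50% of peaks. Without peaks of identical coordinates the difference on chromosome 27 was 0.298, and without high temperature 1 and 3 together it was 0.311.

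**Figure D2:**
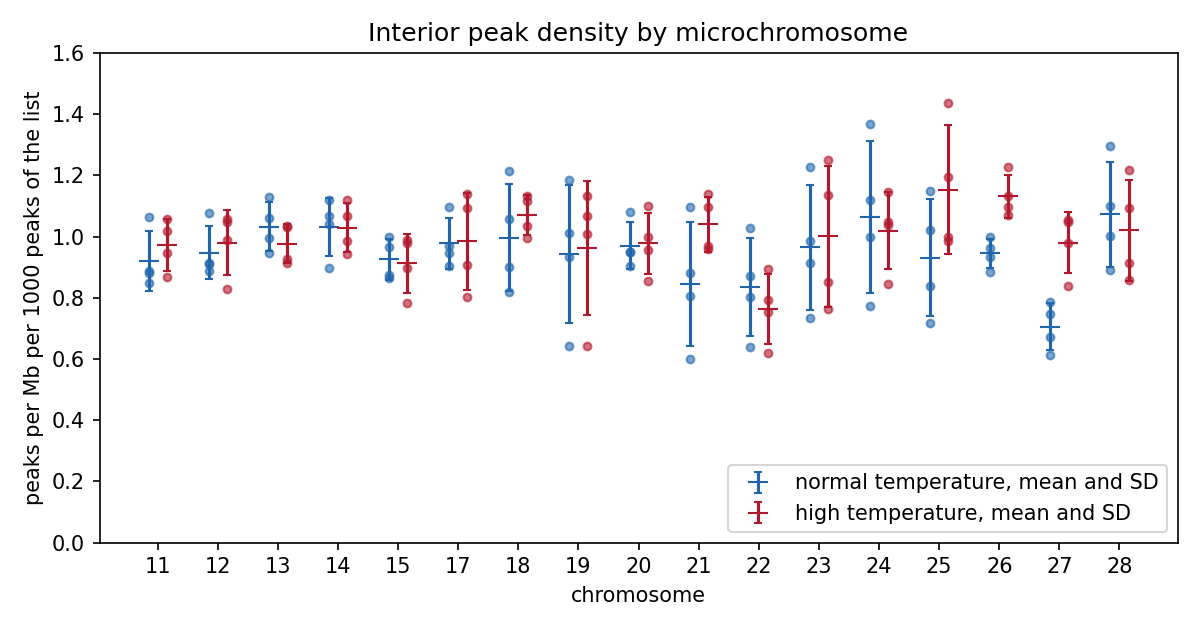
Interior peak density of each microchromosome, in peaks per Mb per 1000 peaks of the library's list, with points for libraries and bars for the group mean and SD (n = 4, normal temperature blue, high temperature red). The groups do not overlap on chromosomes 26 and 27, and chromosome 27 has the lowest normal temperature mean, 0.705.

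Density was next described by distance from the chromosome end. In the normal temperature libraries it averaged 8.68, 9.07, 9.34 and 8.95 peaks per Mb at 0.5 to 1, 1 to 2, 2 to 4 and over 4 Mb from the nearer end. At high temperature it averaged 7.87, 8.30, 7.72 and 7.41 peaks per Mb over the same distances. In high temperature 1 it was 8.69 peaks per Mb at 1 to 2 Mb and 6.39 at over 4 Mb, while high temperature 3 had 8.39 and 8.62. Only at 2 to 4 Mb did all libraries of a group, the normal temperature one, lie on the same side of their own averages. The excess was small, with ratios to the library's average of 1.01 to 1.05, against 0.972 to 1.04 at high temperature. These values are a description, with no test.

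**Figure D3:**
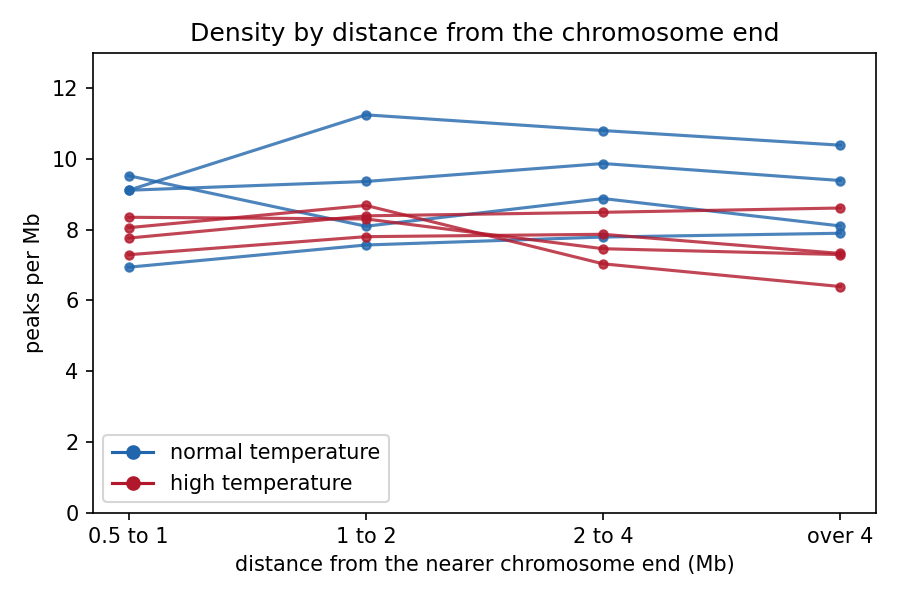
Microchromosome peaks per Mb by distance from the nearer chromosome end, with 1 line per library (normal temperature blue, high temperature red). The line of high temperature 1 goes from 8.69 at 1 to 2 Mb to 6.39 at over 4 Mb.

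In windows of 100 kb the peaks were spread widely and thinly. Of 1646 whole windows, 22 had no peak in any library, and the median window held 6 peaks over the 8 libraries, from 5 different libraries. The highest count was 19, in 3 windows. On chromosome 25 the window from 3000001 to 3100000 held 2, 0, 0 and 2 peaks in normal temperature 1 to 4, against 7, 4, 1 and 3 in high temperature 1 to 4. On chromosome 14 the window from 13500001 to 13600000 held 3, 1, 3 and 3 peaks at normal temperature and 1, 4, 1 and 3 at high temperature. The window on chromosome 20 from 2200001 to 2300000 held 10 peaks at normal and 9 at high temperature. The next windows, on chromosome 13 from 2700001 to 2800000 and from 18100001 to 18200000, held 18 and 17 peaks. The dense windows had peaks at both temperatures, which was likely beforehand in windows chosen for their total over the 8 libraries. In the chromosome 25 window, 11 of the 15 high temperature peaks were in high temperature 1 and 2.

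Long stretches held no peak in any of the 8 libraries. The longest lay on chromosome 22 from 3056097 to 3585901 (530 kb), and similar ones on chromosome 25 from 739753 to 1265012 (525 kb) and on chromosome 11 from 2719869 to 3230909 (511 kb). Chromosome 27 had a pair, from 1018754 to 1517437 (499 kb) and from 1547752 to 1897990 (350 kb), together 12% of its interior. The sequence of these stretches was not analysed here, and their part in the density of chromosomes 22 and 27 was not tested. Chromosome 27 was low at normal temperature only. At high temperature its scaled mean was 0.980, against a median of 0.985 over the microchromosomes.

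Peaks in the microchromosome interiors rarely recurred between libraries. Merged at an overlap of at least 1 bp, they formed 10639 regions, of which 10197, or 95.8%, were held by 1 library alone. Among them 442, or 4.15%, were held by 2 or more libraries, close to the 4.16% of all 66027 regions of the series. High temperature 1 and 3 alone held 252 of the 442, or 57.0%, and 190 regions had another set of holders. Of those 190, 36 were held only at normal temperature, 34 only at high temperature and 120 at both. Of the 27 pairs of libraries other than high temperature 1 with 3, 16 cross temperatures, 6 lie within normal and 5 within high temperature. More pairs were thus available across temperatures, and the split is no result about temperature.

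The share of a library's member peaks that overlapped a peak of another library of its own temperature was 1.57%, 1.73%, 1.40% and 1.26% in normal temperature 1 to 4. It was 23.8%, 1.51%, 19.8% and 2.84% in high temperature 1 to 4. The high values belonged to high temperature 1 and 3, and high temperature 2 lay inside the normal range. The means were 1.49% ± 0.20 and 11.98% ± 11.5 (SD, n = 4 each, two-sided exact permutation p = 0.0857, adjusted p = 0.229). With all libraries kept but overlaps between high temperature 1 and 3 not counted, the difference of 10.5 percentage points was 0.29. Leaving libraries out also takes away partners from the high temperature group alone. The values of -0.12 without high temperature 1 and -0.38 without high temperature 1 and 3 together are therefore not on the same footing as the others. Recurrence across temperatures was counted against all 4 libraries of the other group, so with more partners than within a group. It was 2.22% ± 0.47 for normal and 2.74% ± 0.64 for high temperature peaks (mean and SD, n = 4 each).

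By pairs, high temperature 1 and 3 shared 266 microchromosome regions, 22.2% of the members of the first and 19.0% of those of the second. The other 27 pairs shared 4 to 20 regions, with a median of 10. As a percentage of the smaller list, pairs within normal temperature had a median of 0.674%, pairs across temperatures 0.836% and the remaining pairs within high temperature 0.789%. The largest of these, 1.67%, was high temperature 1 with 4, and the smallest, 0.318%, high temperature 2 with 3.

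**Figure D4:**
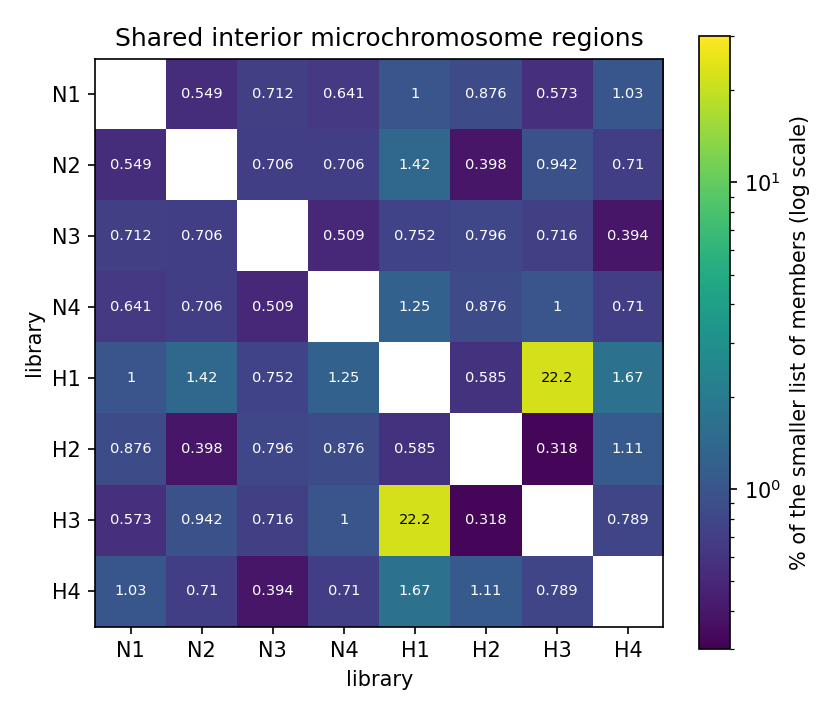
Microchromosome regions shared by each pair of libraries (N normal temperature, H high temperature), as a percentage of the smaller of their member lists, on a logarithmic colour scale. High temperature 1 with 3 reaches 22.2%, and every other pair lies between 0.318% and 1.67%.

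Recurrence was also set against the large chromosomes, and no difference passed the test. The share overlapping a peak of any other library was 3.56%, 4.32%, 2.86% and 3.03% in normal temperature 1 to 4 against 3.64%, 3.98%, 3.34% and 3.59% on chromosomes 1 to 10. It was 26.1%, 3.50%, 21.8% and 4.57% in high temperature 1 to 4 against 24.7%, 3.47%, 20.8% and 3.88%. The difference averaged 0.284 ± 0.686 percentage points (SD, n = 8), positive in 5 of 8 libraries (two-sided exact sign-flip permutation p = 0.297, adjusted p = 1). With a margin of 250 kb in place of 500 kb it was 0.893 percentage points and passed the threshold (exact sign-flip permutation, adjusted p = 0.0312), and with 1 Mb it was -0.016. Not counting overlaps between high temperature 1 and 3 gave 0.040 percentage points at the 500 kb margin (exact sign-flip permutation p = 0.789).

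Only 4 interior microchromosome regions were held by at least 4 libraries, or 0.0376%, against 0.0954% of all regions. The latter also take in chromosome ends and the other chromosomes. Regions held by exactly 4, 5, 6, 7 and 8 libraries made up 0.0094%, 0%, 0.0094%, 0.0188% and 0% of member regions. In the interiors of chromosomes 1 to 10 they made up 0.0084%, 0.0021%, 0.0042%, 0.0063% and 0.0105%. All 4 widely held member regions lay on chromosomes 25 and 27, which make up 6.06% of the microchromosome interior length. No member region was held by all 8 libraries.

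The most widely held were 2 regions with 7 holders each. The first was on chromosome 25 from 2054579 to 2055512 (934 bp), 1898 kb from the nearer end. It was held by every library except normal temperature 2. Its peaks were 923, 739 and 881 bp wide in normal temperature 1, 3 and 4 and 922, 722, 615 and 893 bp in high temperature 1 to 4. The authors' scores were 278.3, 167.6 and 125.9 in the normal and 229.2, 162.1, 150.7 and 197.9 in the high temperature libraries. These are the values of the authors' peak caller, and they were ranked only within a list. The peak stood at place 16 in normal temperature 1 and at place 15 in high temperature 1, but at percentile 19.8 of the scores of normal temperature 4.

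On chromosome 27, all libraries except high temperature 3 held a region from 1017754 to 1018753 (1000 bp). Its 4 normal temperature peaks had widths of 703, 631, 625 and 629 bp and its peaks in high temperature 1, 2 and 4 of 638, 767 and 662 bp. Within lists its score percentile was 98.8, 79.1, 92.0 and 63.8 at normal temperature and 91.4, 87.3 and 24.9 at high temperature. It borders the peak-free stretch that starts at 1018754.

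On chromosome 25 the region from 532417 to 533437 (1021 bp) was held by 6 libraries, normal temperature 1, 3 and 4 and high temperature 1, 2 and 4. Its centre lay 533 kb from the chromosome start, just inside the margin. A second region on chromosome 27, from 2190298 to 2192069 (1772 bp), had 4 holders, normal temperature 4 and high temperature 1, 2 and 4. Its peaks were 1460 bp wide in the first and 1643, 1417 and 1489 bp in the others, among the widest of all members. High temperature 1, 2 and 4 and normal temperature 4 held all 4 regions, normal temperature 1 and 3 held 3, and normal temperature 2 and high temperature 3 held 1. Each of the 4 regions was held at both temperatures. Except for the region with 4 holders this was fixed beforehand, since a group has only 4 libraries.

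A further 21 regions, or 0.197%, were held by exactly 3 libraries, against 0.183% of all regions. Of the 21, 13 had high temperature 1 and 3 among the holders and 18 had holders at both temperatures. Most possible sets of 3 out of the 8 libraries take in both temperatures, so the latter count is no result about temperature.

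A region counted as marked at a single temperature when 3 or more of the 4 libraries of that group held it and 0 of the other 4 did. In the microchromosome interiors 3 were specific to high temperature, or 0.0282% of 10639, against 0.0333% of all regions. At normal temperature the count was 0, against 0.00303% of all regions. Fisher's exact test, two-sided and adjusted over all 66027 regions, called 0 member regions and 0% of all regions. At an unadjusted p under 0.05 it also called 0, and its smallest p was 0.143. The test could not have called any region, since 4 libraries against 0 give an exact p of 0.0286, too high to pass adjustment when 95.8% of regions have a single holder.

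High temperature 1, 3 and 4 held a region of 469 bp on chromosome 17, between 2760448 and 2760916, with identical coordinates in the first 2 libraries. The same libraries held a region of 489 bp on chromosome 14, between 6974563 and 6975051. High temperature 1, 2 and 4 held a region of 1584 bp on chromosome 25, between 3087956 and 3089539. All 3 had a peak of high temperature 1 and of high temperature 4, and without either of these libraries the count was 0. Each region had exactly 3 holders and 3 were still required, so leaving out any holder removed it by definition. Their mean score percentiles were 36.6, 27.6 and 32.9, in the lower part of the lists. The count was 0 with the upper 50% of peaks by score and 1 without high temperature 3. It was 2 without the identical peaks of high temperature 1 and 3, and 11 when peaks within 500 bp counted as overlapping.

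Widths were compared next. Member peaks had a median width of 328 bp in high temperature 1 and of 200 bp elsewhere. Peaks of exactly 200 bp made up 86.8%, 94.2%, 88.3% and 83.4% of members in normal temperature 1 to 4. They made up 20.4%, 83.4%, 84.0% and 81.5% in high temperature 1 to 4. Among the members 0 were narrower than 200 bp.

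Peaks wider than 250 bp made up 2.28%, 1.10%, 2.67% and 5.61% of members in normal temperature 1 to 4, against 60.1%, 5.25%, 3.36% and 5.36% in high temperature 1 to 4. High temperature 2, 3 and 4 lay above the first 3 normal libraries and below normal temperature 4. The group means were 2.91% ± 1.92 and 18.5% ± 27.7 (SD, n = 4 each, two-sided exact permutation p = 0.114, adjusted p = 0.229). Without high temperature 1 the difference of 15.6 percentage points was 1.75. Covered length was 1.91 ± 0.30 kb per Mb at normal and 1.93 ± 0.48 kb per Mb at high temperature (mean and SD, n = 4 each, two-sided exact permutation p = 0.914, adjusted p = 0.914). High temperature 1 covered 2.64 kb per Mb and the other 3 high temperature libraries 1.63 to 1.77, and without it the difference of 0.021 kb per Mb was -0.22.

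**Figure D5:**
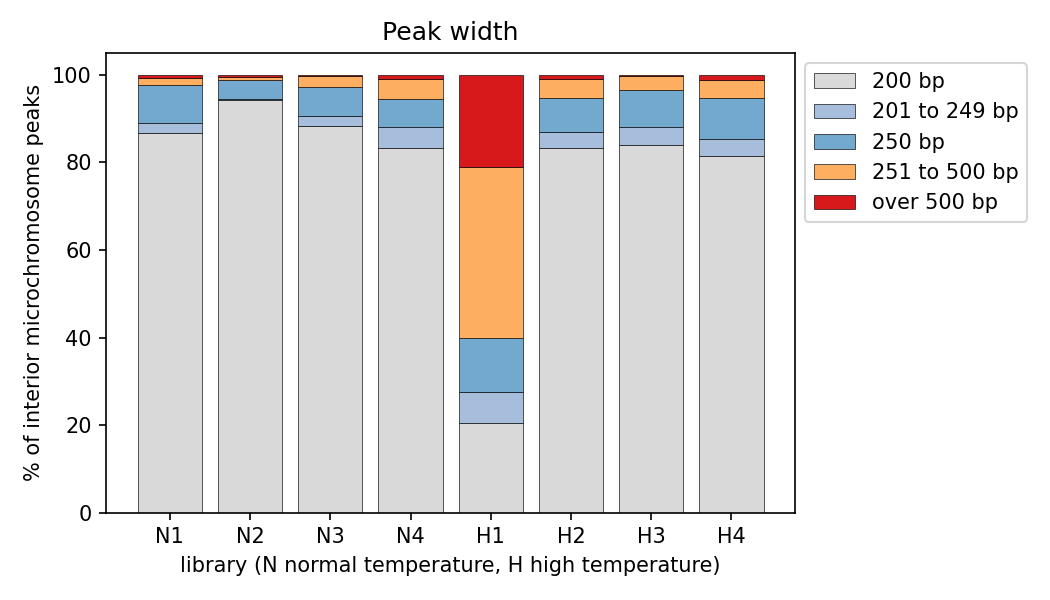
Width classes of interior microchromosome peaks in each library, as a percentage of its members (N normal temperature, H high temperature). Peaks of 200 bp make up 81.5% to 94.2% in 7 libraries and 20.4% in high temperature 1, where 21.1% are over 500 bp.

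Against large chromosomes, no difference in width passed the test. The share wider than 250 bp differed by 0.065 ± 0.733 percentage points (SD, n = 8), higher on microchromosomes in 3 libraries and lower in 5 (two-sided exact sign-flip permutation p = 0.844, adjusted p = 1). With a margin of 250 kb it differed by 0.704 percentage points (exact sign-flip permutation, adjusted p = 0.0312).

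Recurrence by width is given as a description, leaving out overlaps between high temperature 1 and 3. In the 7 libraries other than high temperature 1, 3.17% of 9251 members of 200 or 250 bp met a peak elsewhere. Of 303 members wider than 200 and narrower than 250 bp, 6.27% did. The share was 4.68% of 299 members wider than 250 and up to 500 bp, and 44.1% of 68 members over 500 bp. It thus did not rise at every step of width. On chromosomes 1 to 10 the shares, in the same order, were 3.23%, 4.71%, 7.22% and 40.9%. Members of high temperature 1 had shares of 3.56%, 2.35%, 4.28% and 9.52%, the last of 252 peaks over 500 bp. On chromosomes 1 to 10 its share over 500 bp was 8.91% of 1122. All libraries pooled gave 16.9% of 320 members over 500 bp. The 44.1% thus holds for the other 7 libraries and not for high temperature 1. Of the 68 members over 500 bp in those 7 libraries, 26 lay on chromosomes 25 and 27, or 38.2%, where these chromosomes held 5.53% of all members. Of the 26, 19 belonged to the 4 widely held regions above, whose peaks recur by definition. These 19 are among the 30 recurrent peaks behind the 44.1%, where peaks of 1 region in several libraries count separately. In high temperature 1 the share of peaks over 500 bp on these 2 chromosomes was 11.9% of 252. These chromosomes were singled out after the values had been seen.

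The 171 peaks with identical coordinates in high temperature 1 and 3 had a median width of 205 bp, and 48.5% of them were exactly 200 bp wide. The other members of high temperature 1 had a median width of 368 bp. The identical peaks ranked high in both lists, at a median score percentile of 81.2 in high temperature 1 and 81.4 in high temperature 3.

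The median score percentile of the members within their lists was 57.4, 52.1, 51.4 and 49.6 in normal temperature 1 to 4, against 51.7, 53.5, 46.4 and 47.0 in high temperature 1 to 4. On chromosomes 1 to 10 the median was the same in 7 of 8 libraries, where many peaks share a score, and 1.86 percentiles lower in normal temperature 3 (two-sided exact sign-flip permutation p = 1, adjusted p = 1). That p was fixed in advance, since the test gives the same value whenever only 1 library has a difference. Of the members, 9.11% to 11.9% were among the 10% of peaks with the highest scores in their list. In normal temperature 1 to 4 the share was 11.2%, 11.9%, 10.4% and 10.5%, against 9.35%, 9.48%, 10.03% and 9.40% on chromosomes 1 to 10. In high temperature 1 to 4 it was 9.11%, 9.95%, 10.95% and 11.6%, against 10.2%, 9.97%, 9.71% and 9.60%. These differences were not tested.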

How the data were processed

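The authors deposited 1 peak list per library, without a header, with chromosome, start, end, a peak name beginning with MACS and a score. The deposited score is the peak caller's value, and its scale, the caller's version, thresholds and any control library are not stated in the labels or files. The submitters' processing notes name cutadapt 1.9.2, Bowtie2 2.2.4 and galGal6. Starts follow the BED convention in the files (first base 0) and are printed with the first base as 1. Chromosome lengths were taken as the highest peak end.

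Libraries were grouped by the labels' treatment and compared by exact permutation over 70 assignments (smallest p 0.0286). Microchromosomes were compared with chromosomes 1 to 10 by exact sign-flip over 256 patterns (smallest p 0.00781). Benjamini-Hochberg adjustment ran over 6 temperature measures, 4 part measures, 31 chromosomes and 66027 regions. The merge gave as many regions as bedtools 2.31.1. Tied scores were broken at random with a fixed seed, since the lists are in chromosome order. The code was tested on simulated data. The members, tests and lists were chosen with earlier results of these data known.

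Regions named were those held by at least 4 libraries or at a single temperature, the 5 fullest windows and the longest peak-free stretch, with other stretches and chromosomes 25, 26 and 27 chosen after their values were seen. Gene annotation, sequence, response elements and GC content of galGal6 were not used here. The alternatives are in the closing section. The software was Python 3.11.15 with scipy 1.17.1, numpy 2.4.6, pandas 2.3.3 and, for plots, matplotlib 3.10.9.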

Additional observations from a re-analysis of the deposited data

Results flagged for a closer look

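In 58 groups of 4 values examined, 8 held a library far from the other 3, where chance sets apart about 1 in 20. Several of these values derive from 1 list and so are not independent. High temperature 1 accounted for 3 of them. Its share of members wider than 250 bp was 60.1% against 3.36% to 5.36%, its covered length was 2.64 kb per Mb against 1.63 to 1.77, and its median width was 328 bp against 200 bp.

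Normal temperature 2 accounted for another 3, with a low interior density on chromosomes 19, 21 and 24. It had 5.76 peaks per Mb on chromosome 19 against 9.79 to 10.2, 5.39 on chromosome 21 against 8.53 to 9.05, and 6.92 on chromosome 24 against 10.6 to 11.3. This library also had the lowest density ratio to chromosomes 1 to 10, 0.879, and 50.8% of its whole list carried the same score.

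Normal temperature 3 had 10.4 peaks per Mb on chromosome 22 against 6.76 to 7.21 in the other normal libraries. Its median score percentile on microchromosomes was 1.86 above that on chromosomes 1 to 10, where the difference was 0 in the other 3. For this difference, and for the median width of high temperature 1, the other 3 values were equal. Any different value is then flagged, and the rate of about 1 in 20 does not apply.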

How the results depend on the processing

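The 6 temperature measures and 4 comparisons with chromosomes 1 to 10 gave 168 values under the alternatives, of which 146 kept their direction and their side of the threshold and 1 was 0. The 2 that newly passed it came with a margin of 250 kb: recurrence against large chromosomes at 0.893 and width at 0.704 percentage points. For the temperature measures, keeping the side of the threshold carries little information. Their lowest possible p passes adjustment only if several measures reach it. With the replicate block, or without high temperature 1 and 3 together, no p could fall below 0.05. Directions that turned belonged to differences that had not passed the threshold, and the cause was not tested. Covered length per Mb turned to -0.078 with the upper 50% of peaks by score, -0.10 without identical peaks and -0.26 without high temperature 1 and 3 together, and ran from -0.22 to 0.14 over the omission of each library. Recurrence in the own group was 0.29 with overlaps of high temperature 1 and 3 not counted. It was -0.38 without both libraries and ran from -0.12 to 13.6 over single omissions, where a group that loses libraries also loses partners to overlap. Member density was 0.15 with equal numbers of peaks. Recurrence against large chromosomes was -0.016 without identical peaks, -0.016 with a margin of 1 Mb, -0.086 against chromosomes 6 to 10 and -0.13 without high temperature 1 and 3 together, and ran from -0.097 to 0.547 over single omissions. The share wider than 250 bp against large chromosomes was -0.30 with the upper 50% of peaks, -0.012 with equal numbers and -0.0089 with a margin of 1 Mb, and ran from -0.15 to 0.18 over single omissions. The median score percentile differed by -0.026 without identical peaks and by 0 to 0.27 over single omissions. Without turning, over single omissions member density ran from -1.79 to -0.83, share of list from 0.0084 to 0.94, the density ratio from 0.025 to 0.097 and log2 density against large chromosomes from 0.0086 to 0.054. Microchromosomes with every high temperature library above every normal one numbered 0 with the upper 50% of peaks and 0 with equal numbers. High temperature regions numbered 0 with the upper 50%, 11 with peaks within 500 bp and 0 to 4 over single omissions. When a high temperature library was left out, 3 holders were still required, which were then all that remained. Without high temperature 1 and 3 together the count was 0 by definition, since fewer libraries remained than the 3 required. Leaving out both, and not counting overlaps between those 2 libraries, were chosen after seeing the data.

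With the replicate number as a block, 0 of 6 temperature measures and 0 chromosomes passed, and the exact permutation p over 4 pairs cannot go below 0.125. Adjusted p ran from 0.5 to 0.875 over the 6 measures and was 0.912 for chromosomes 26 and 27. Deviations of same-numbered libraries over the 17 chromosomes correlated at -0.33 to 0.31, above 0.1 in 3 of 4 pairs, and those of differently numbered libraries reached 0.40. With 1 pair below 0.1 and no pairing given in the labels, the numbers were not taken to pair the libraries.

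The lists hold no read counts, so a missing peak cannot be told apart from signal below a library's score limit.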
